A study of Mus musculus with 6 samples.

Results

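The 32 genes described here are markers of B cells and of the antibody-secreting cells that B cells give rise to, with the constant genes of the immunoglobulin chains, measured in RNA of the mouse aorta. They were taken by name from a gene count table of 47643 genes, after its Ensembl identifiers were matched to mouse gene symbols, and all 32 were found. They fall into 15 genes of naive and mature B cells and 17 antibody-secreting and immunoglobulin genes, which are described apart. Both groups were Apoe-/- mice, which lack apolipoprotein E and carry high blood cholesterol. The EPO group of 3 libraries received recombinant human erythropoietin, the hormone that drives red cell formation, into the peritoneum at 5000 IU per kg each day for 4 weeks. The Vehicle group of 3 libraries received saline by the same route for the same 4 weeks. The question behind the comparison, from the study's title, is how erythropoietin bears on abdominal aortic aneurysm, vessel growth and inflammatory infiltration. The labels give no age, no sex, no aneurysm status for a library and no word on whether a library is 1 animal or several, so the p-values below measure the spread between these libraries.

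A B cell carries membrane IgM and IgD as its antigen receptor, joined to the signalling chains CD79A and CD79B, and its identity is held by transcription factors such as PAX5 and EBF1. When it turns into an antibody-secreting cell, PRDM1 (Blimp-1) rises, PAX5 and its targets fall, and the cell fills with immunoglobulin message and with the machinery that folds and exports the protein. In the arteries of Apoe-/- mice, B cells and plasma cells lie mainly in the adventitia and in the fat and lymphoid aggregates around the vessel, so that dissection can carry them along.

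Library totals ran from 23278649 to 38502430 counts, and 16522 genes had counts enough for the test. Levels are given as CPM (counts per 1000000) after TMM scaling, an adjustment for library composition, and a gene is called changed where the edgeR quasi-likelihood test gives a p under 0.05 after Benjamini-Hochberg adjustment over all tested genes. Of those genes 3804 (23%) were called, 2133 of them (12.9%) higher and 1671 (10.1%) lower with EPO, and the median log2 fold change was 0.0113. Changes in the B cell genes have to be read against this wide background. In tissue RNA, more cells of a type and more RNA per cell cannot be told apart.

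Markers of other tissues and cells differed between the same libraries. The summed level of 6 skeletal muscle genes was 3.97 to 10.9 CPM in the Vehicle libraries and 820, 2260 and 233 CPM in EPO 1, EPO 2 and EPO 3, and all 6 were called higher (Acta1 and Tnnt3 among them, while Mybpc1 had no count in 1 Vehicle library). That of 6 white adipocyte genes was 1380 to 2840 CPM with Vehicle and 563 to 1010 CPM with EPO, and 5 of the 6, including Retn and Plin1, were called lower. All 5 smooth muscle genes (Myocd and Cnn1 among them) were called lower, and their sum was 18100 to 25900 CPM with Vehicle and 6750 to 8320 CPM with EPO. For 6 fibroblast genes it was 5910 to 7380 CPM and 26300 to 32900 CPM, most of the difference being in Col1a1, which was called higher together with Lum. The other 4 genes were not called, with log2 fold changes of 0.40 (Pdgfra), 0.47 (Dpt), -0.13 (Dcn) and -0.28 (Pi16). The 8 macrophage genes summed to 1900, 3500 and 3870 CPM with Vehicle and 9540, 4520 and 4060 CPM with EPO. All 8 were highest in EPO 1, although Adgre1 alone was called higher and Csf1r was not. The 7 T cell genes summed to 19.3, 21.8 and 41.7 CPM against 45.3, 28.7 and 45.4 CPM, and none was called in edgeR, with 1 at an unadjusted p under 0.05 (Cd3g and Cd2 had the lowest p-values). Cd4 was lower in value with EPO (log2 fold change -0.51), while the rest of the T cell list ran from 0.57 to 1.05. Of 5 plasmacytoid dendritic cell genes 4 were tested and 2 called higher, Bst2 and Cox6a2. The first of these is also an interferon response gene and the second a muscle gene. The tested genes not called were Siglech, lower in value with EPO (log2 fold change -0.44, edgeR adjusted p = 0.638), and Ccr9 (1.46, adjusted p = 0.0704). Klk1 of that list had no count in 1 Vehicle library. The 6 erythroid genes, Alas2 and Hbb-bt included, summed to 759 to 1550 CPM with Vehicle and 492 to 1460 CPM with EPO, and none was called or had an unadjusted p under 0.05. Genes of lymph node stroma and high endothelium summed to 28.2, 39.5 and 67.5 CPM with Vehicle and 189, 71.4 and 151 CPM with EPO. Ccl21a made up most of that sum and was the 1 of 3 tested genes called higher. Cxcl13, the chemokine that draws B cells into follicles, was lower in value with EPO, at 3.04, 5.75 and 10.7 CPM against 0.837, 2.92 and 4.09 CPM, and was not called (log2 fold change -1.32 ± 0.62, edgeR adjusted p = 0.169). Madcam1, an address marker of high endothelial venules in gut-associated lymphoid tissue, had 1 to 4 counts in 5 libraries and 25 in EPO 3. Glycam1, a ligand made by the same kind of vessel in lymph nodes, had 5 to 19 counts in those 5 libraries and 33 in EPO 3. Chst4, an enzyme of the same vessels, did not share that pattern, with 24, 3 and 5 counts with Vehicle and 3, 3 and 13 with EPO. These 3 genes were too low to test and are named after their values were seen. Several of these marker calls depended on 1 library. Adgre1 was lost without Vehicle 1 (adjusted p = 0.0587), Bst2 without any 1 of the Vehicle libraries (up to 0.115), Cox6a2 without Vehicle 2, Vehicle 3, EPO 1 or EPO 2 (up to 0.0861), Lum without any 1 library (up to 0.0859) and Ccl21a without Vehicle 1 or Vehicle 2 (up to 0.079). Cd3g was called higher without Vehicle 3 (0.0367), and Cd2 and Csf1r without EPO 2 (both 0.045). The part these tissues play in the B cell results was not tested.

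Of the 32 genes 31 had counts enough for the test, and Ighe, the constant gene of IgE, did not, with 0, 3 and 0 counts in Vehicle 1, 2 and 3 and 0, 1 and 1 in EPO 1, 2 and 3. Of the 31, 8 (25.8%) were called and all 8 were higher with EPO, beside 12.9% called higher and 23% called in either direction among all tested genes. All 8 belonged to the antibody-secreting and immunoglobulin genes, of which 8 of the 16 tested were called, while 0 of the 15 naive and mature B cell genes were. The median log2 fold change was 1.72 in the first set and 0.50 in the second. Every EPO library lay above every Vehicle library for 10 of the 16 genes and for 2 of the 15, beside 22.9% of all tested genes. The difference between the sets has no test of its own here, since the genes were listed with results of these data known. Ighm and the light-chain genes are also read in naive B cells, whose receptor holds IgM, so the sets do not part the cell states cleanly.

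**Figure D1:**
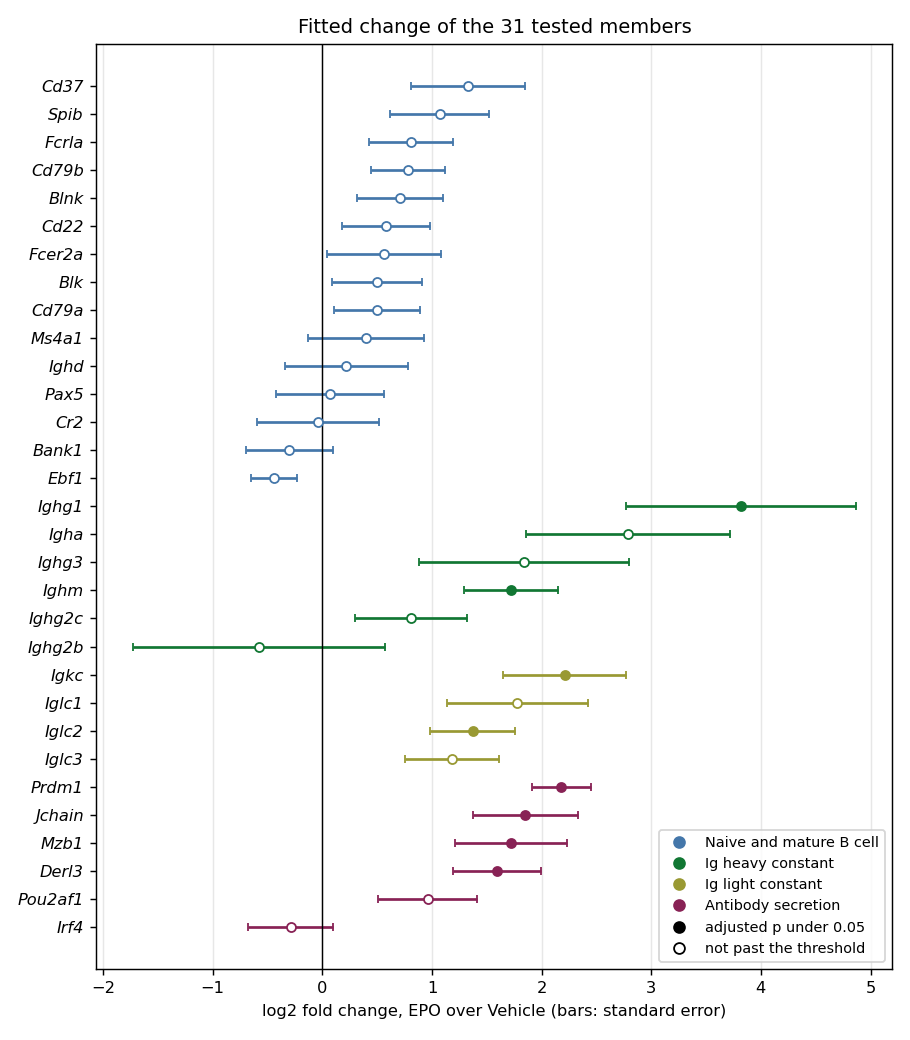
Log2 fold change of EPO over Vehicle for the 31 tested genes (horizontal axis), 1 row per gene grouped by role, with bars of 1 standard error from edgeR and filled points for genes called at an adjusted p under 0.05. The 8 filled points all lie to the right of 0 and all belong to immunoglobulin or antibody-secreting genes, while the 15 naive and mature B cell genes run from -0.44 to 1.33 with no filled point.

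The count of 8 depended on which libraries were in the fit. It was 1 without Vehicle 1, 1 without Vehicle 2, 3 without Vehicle 3, 2 without EPO 1, 8 without EPO 2 and 4 without EPO 3. Prdm1 was called in all 6 of these fits. Over all genes 3804 of 16522 were called with all libraries, 1635 of 17058 without Vehicle 1 and 4281 of 16985 without EPO 1. The members did not move in step with this, since without EPO 1 their count fell to 2 of 31. With 1 library left out, the share of members called was below that of all genes called in either direction, except without EPO 2. It was below the share of all genes called higher without Vehicle 1, Vehicle 2 or EPO 1. With both EPO 1 and EPO 2 left out, the libraries with most skeletal muscle counts, 6 members were called with 1 EPO library standing for the group, whose spread is then assumed to match that of the Vehicle libraries. limma-voom called 5 of the 31, beside 3481 of all 16522 genes, 1893 of these higher. DESeq2 called 9 of all 32, beside 4907 of 29482 genes. Without the filter on low counts edgeR also called 9 of the 32, beside 4144 of 29482 genes.

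The naive and mature B cell genes open with the antigen receptor. Cd79a, a signalling chain of the receptor, was at 5.65, 4.24 and 2.79 CPM in Vehicle 1, 2 and 3 and at 6.0, 3.43 and 8.48 CPM in EPO 1, 2 and 3. Its partner Cd79b was at 3.65, 3.34 and 2.73 CPM against 6.75, 3.09 and 6.79 CPM. In both genes EPO 1 and EPO 3 were above every Vehicle library and EPO 2 was not, so the groups overlapped. The log2 fold changes were 0.50 ± 0.39 (SE, n = 3 and 3, edgeR adjusted p = 0.386) for Cd79a and 0.78 ± 0.34 (adjusted p = 0.137) for Cd79b. Without EPO 2, Cd79b passed the test (log2 fold change 1.07, edgeR adjusted p = 0.0357). Ighd, the constant gene of IgD, which naive B cells show and plasma cells do not, was at 7.04, 3.34 and 2.38 CPM with Vehicle and 3.54, 2.44 and 8.78 CPM with EPO. Its highest Vehicle library and its highest EPO library were close to each other, and the log2 fold change was 0.22 ± 0.56 (edgeR adjusted p = 0.815).

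Ms4a1 encodes CD20, a surface protein lost when B cells become plasma cells. Its level was 2.35, 2.45 and 1.21 CPM with Vehicle and 1.62, 1.46 and 4.81 CPM with EPO. EPO 3 alone was above the Vehicle libraries, and the log2 fold change of 0.40 ± 0.53 (edgeR adjusted p = 0.627) turned to -0.37 without that library. Cr2, the complement receptor CD21, stayed at 0.307 to 1.05 CPM in all 6 libraries, with a log2 fold change of -0.04 ± 0.56. Fcer2a, the low-affinity IgE receptor CD23, was at 1.65, 1.05 and 0.552 CPM against 0.892, 1.36 and 2.53 CPM (log2 fold change 0.56 ± 0.52, edgeR adjusted p = 0.477). As with CD20, EPO 3 was the highest library of all for both receptors. Cd22, an inhibitory sialic acid receptor, was highest in EPO 1 instead, at 28.6 CPM, while the other 5 libraries ran from 9.17 to 13.5 CPM (log2 fold change 0.58 ± 0.40, edgeR adjusted p = 0.327).

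Cd37, a tetraspanin of mature B cells and other leukocytes, was at 0.478, 0.311 and 0.552 CPM in Vehicle 1, 2 and 3 and at 1.95, 0.713 and 0.721 CPM in EPO 1, 2 and 3. The groups did not overlap, and the log2 fold change of 1.33 ± 0.52 missed the threshold (edgeR adjusted p = 0.104) and was 0.66 without EPO 1. Its exons lie opposite those of Tead2, which had 99 to 170 counts with Vehicle and 242 to 272 with EPO, against 8 to 16 and 21 to 70 counts for Cd37. The strand setting of the counting is not given in the sources used here, and reads of such partners cannot be told apart without it.

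The signalling genes of the list were led by Blnk, the adaptor that links the receptor to its enzymes. It was at 9.99, 16.2 and 15.7 CPM with Vehicle and 38.0, 14.2 and 16.2 CPM with EPO, so that EPO 1 stood apart and the other 5 libraries mixed (log2 fold change 0.71 ± 0.39, edgeR adjusted p = 0.231). Blnk and Cd22, with their maxima in EPO 1, are also found in macrophages or other myeloid cells, whose 8 markers were highest in the same library, and the part of such cells was not tested. Blk, a SRC-family kinase, ran from 0.690 to 1.69 CPM with Vehicle and from 1.15 to 2.12 CPM with EPO. Bank1, a scaffold of B cell receptor signalling, was at 3.87, 2.92 and 2.31 CPM against 1.42, 2.21 and 3.73 CPM, with a log2 fold change of -0.30 ± 0.40 (edgeR adjusted p = 0.619). Fcrla, an intracellular Fc receptor-like protein, ran from 0.505 to 0.869 CPM and from 0.781 to 1.44 CPM (log2 fold change 0.81 ± 0.38, edgeR adjusted p = 0.168). None of these 4 genes separated the groups.

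Among the transcription factors, Pax5 was at 3.13, 1.98 and 1.17 CPM with Vehicle and at 1.67, 1.32 and 3.55 CPM with EPO. Its log2 fold change was 0.07 ± 0.49 (edgeR adjusted p = 0.94). Spib, an ETS factor of B cells and plasmacytoid dendritic cells, was at 1.61, 1.91 and 1.38 CPM against 2.04, 2.31 and 5.95 CPM. All EPO libraries were above all Vehicle libraries, but EPO 3 carried most of the difference, and the log2 fold change of 1.07 ± 0.45 (edgeR adjusted p = 0.13) was 0.41 without it. With EPO 3 as the only EPO library, Spib passed the test (edgeR adjusted p = 0.0295). Ebf1 differed from the other 14 genes in level, at 106, 100 and 85.6 CPM with Vehicle and 49.4, 82.7 and 82.2 CPM with EPO. It is also active in adipocytes, mural cells and fibroblasts, and every EPO library was below every Vehicle library (log2 fold change -0.44 ± 0.21, edgeR adjusted p = 0.17). The adipocyte marker sum, given above, was lower in the EPO libraries too, and its part in the Ebf1 values was not tested.

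Across the 15 naive and mature B cell genes, EPO 3 was the highest EPO library for 10, EPO 1 for 4 and EPO 2 for 1. In edgeR 2 of the 15, Spib and Cd37, had an unadjusted p under 0.05. DESeq2 and limma-voom called 0 of them. Their standard errors were 0.21 to 0.56 on the log2 scale, so that a missed threshold does not show that a gene was equal in both groups.

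**Figure D2:**
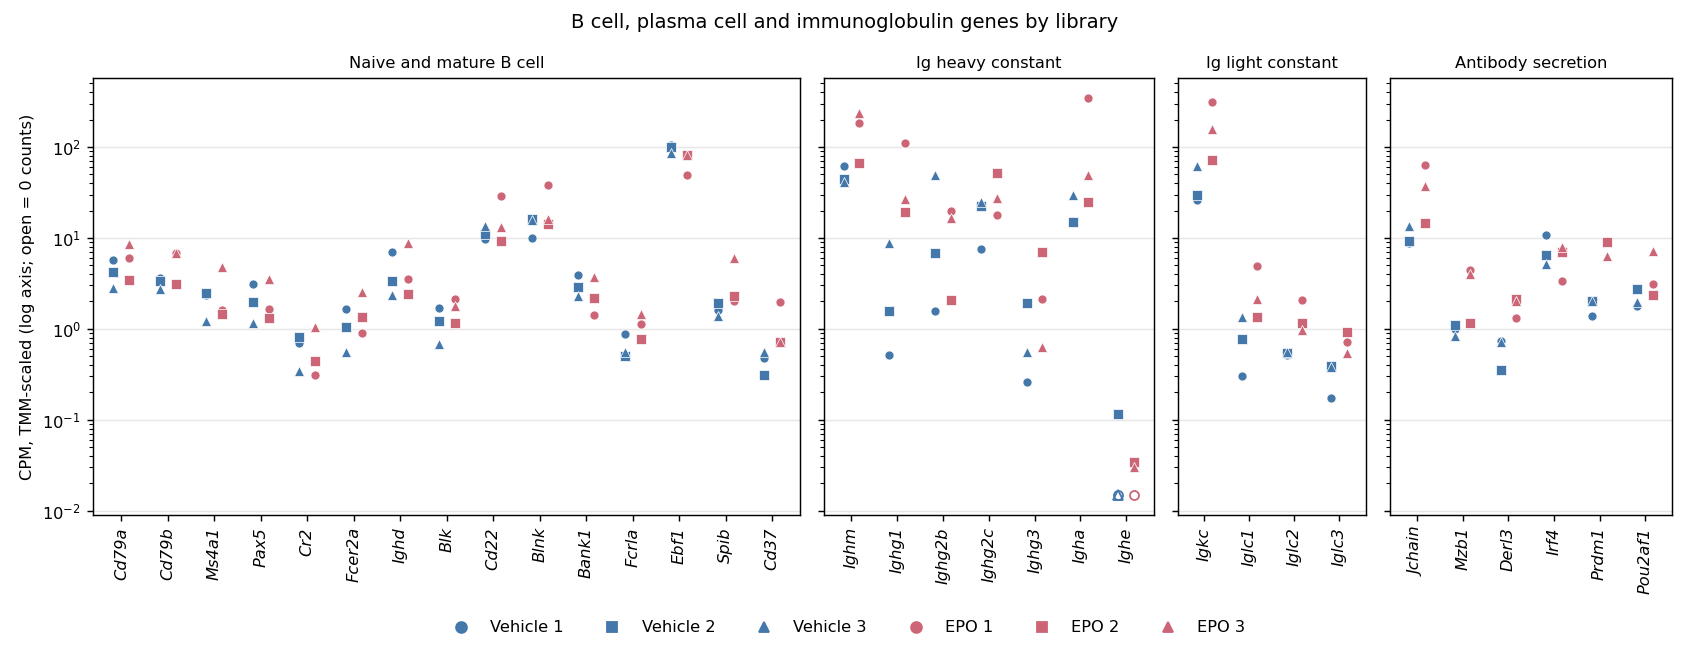
Level of each of the 32 genes in each library (CPM after TMM scaling, log axis), with Vehicle and EPO libraries as separate symbols and open symbols for libraries without a count. Prdm1, Jchain, Ighm, Ighg1, Igkc and Derl3 have every EPO library above every Vehicle library, while Ms4a1, Pax5, Cr2 and Ighd have the groups mixed.

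The antibody-secreting genes start with Prdm1, the factor that switches a B cell to secretion (chr10:44437177-44528501 in GRCm38, minus strand). It was at 1.39, 2.02 and 2.0 CPM in Vehicle 1, 2 and 3 and at 9.31, 9.10 and 6.28 CPM in EPO 1, 2 and 3. The lowest EPO library was above the highest Vehicle library by a wide margin, and the 3 EPO libraries were close to each other. The log2 fold change was 2.18 ± 0.27 (4.54-fold, n = 3 and 3, edgeR adjusted p = 0.00292). With 1 library left out at a time, the adjusted p ran from 0.00449 to 0.0161, and without EPO 1 and EPO 2 it was 0.0349. Prdm1 is also expressed in T cells, macrophages and endothelium, so its level is not a measure of plasma cells alone.

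Neither of its partner factors was called in the fit of all libraries. Irf4, needed both for germinal centre entry and for plasma cell formation, was at 10.7, 6.53 and 5.18 CPM with Vehicle and 3.35, 6.96 and 8.0 CPM with EPO (log2 fold change -0.29 ± 0.39, edgeR adjusted p = 0.625). Pou2af1, a coactivator of immunoglobulin promoters present in B cells and plasma cells, was at 1.78, 2.76 and 1.97 CPM against 3.12, 2.38 and 7.18 CPM. EPO 2 lay within the Vehicle values and EPO 3 far above them, and the log2 fold change was 0.96 ± 0.45 (edgeR adjusted p = 0.161). With EPO 3 as the only EPO library, Pou2af1 passed the test (edgeR adjusted p = 0.0391).

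Jchain, the joining chain of polymeric IgM and IgA (chr5:88519809-88527891, minus strand), was at 8.91, 9.21 and 13.6 CPM with Vehicle and at 62.8, 14.5 and 37.0 CPM with EPO. The groups did not overlap, but EPO 2 was barely above Vehicle 3. Its log2 fold change was 1.85 ± 0.48 (3.60-fold, edgeR adjusted p = 0.0312). Mzb1, a chaperone that helps assemble IgM in the endoplasmic reticulum, was at 0.999, 1.09 and 0.828 CPM against 4.43, 1.15 and 4.03 CPM. Here too EPO 2 sat next to the Vehicle libraries while EPO 1 and EPO 3 were high (log2 fold change 1.72 ± 0.51, edgeR adjusted p = 0.0463). Mzb1 shares exon bases on the same strand with an annotated neighbour, so part of its reads could be assigned either way. Both calls were lost without Vehicle 1, Vehicle 2, Vehicle 3, EPO 1 or EPO 3, with adjusted p up to 0.116 for Jchain and 0.136 for Mzb1. Without EPO 1 the Jchain log2 fold change was 1.27. In limma-voom the adjusted p was 0.0813 for Jchain and 0.113 for Mzb1.

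Derl3, which moves misfolded proteins out of the endoplasmic reticulum (chr10:75893413-75895941, plus strand), was at 0.739, 0.350 and 0.725 CPM with Vehicle and at 1.31, 2.14 and 2.04 CPM with EPO. All EPO libraries were above all Vehicle libraries, with EPO 1, the highest library for Jchain and Mzb1, the lowest of the EPO group. The log2 fold change was 1.59 ± 0.40 (3.01-fold, edgeR adjusted p = 0.027), and the call was lost without Vehicle 1, Vehicle 2, Vehicle 3, EPO 2 or EPO 3 (adjusted p up to 0.0883).

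Because Derl3 is a target of the unfolded protein response in many cell types, its promoter is shown, from RefSeq on GRCm38.p6 (chr10:75893148-75893447, plus strand, 250 bases before to 50 after the gene's start), with capitals marking a match to the endoplasmic reticulum stress response element on the reverse strand.
Derl3: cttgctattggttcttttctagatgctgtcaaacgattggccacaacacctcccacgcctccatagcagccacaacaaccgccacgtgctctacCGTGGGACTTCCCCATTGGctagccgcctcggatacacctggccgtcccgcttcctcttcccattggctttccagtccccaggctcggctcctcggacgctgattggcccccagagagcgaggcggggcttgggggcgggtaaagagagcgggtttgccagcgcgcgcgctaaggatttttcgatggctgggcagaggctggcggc
That element is CCAAT followed after 9 bases of any kind by CCACG, and 39 of 32851 promoters of the same length (0.119%) hold it on either strand. Among the 16 members with a promoter in the RefSeq table, Derl3 alone held it, and of 16 secretory genes with one, Creld2 and Hsp90b1 did. This element was looked for after the Derl3 sequence had been read, as the last of 11 motifs searched on both strands, so that its presence is a description. The other 10 were, with the share of all promoters that hold them, the octamer ATGCAAAT of immunoglobulin genes (1.74%, among members in Blnk), GAAGTGAAA (0.505%, in Bank1), GGAAGTG (11%, in Bank1 and Cd79a), TCCC and GGGA with 2 bases between them (0.904%, in Cd22), TGACGTGG (0.676%, in Pou2af1), CCAAT (37.4%, in 7 members), GAGGAAGTG (1.57%, in none), GAGGAA (28.3%, in 8 members), CTA and TAG with 4 bases between them (3.69%, in Bank1) and GACGTG (6.38%, in Pax5 and Pou2af1). GAGGAA lies within GAGGAAGTG, as do GGAAGTG in GAGGAAGTG, GACGTG in TGACGTGG and CCAAT in the stress element, so these overlap. Of the 8 members that were called, Prdm1, Derl3 and Jchain had a promoter in the table.

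The heavy-chain constant genes lie next to each other on chromosome 12, from Igha at 113254830 to Ighm, which ends at 113422730, and a B cell that switches class replaces the one nearest its variable region. Ighm, the gene of IgM, was at 62.0, 44.8 and 41.3 CPM in Vehicle 1, 2 and 3 and at 183, 67.0 and 237 CPM in EPO 1, 2 and 3. All EPO libraries were above all Vehicle libraries, EPO 2 by the least (log2 fold change 1.72 ± 0.43, 3.29-fold, edgeR adjusted p = 0.0264). Ighg1, of IgG1, was at 0.521, 1.56 and 8.87 CPM against 112, 19.5 and 26.6 CPM, the widest fold among the 31 genes (log2 fold change 3.82 ± 1.05, edgeR adjusted p = 0.0376). Its Vehicle libraries themselves spanned 12 to 257 counts. The Ighm call was lost without Vehicle 1, Vehicle 2, Vehicle 3, EPO 1 or EPO 3 (adjusted p up to 0.0937). That of Ighg1 was lost without Vehicle 1, Vehicle 2 or EPO 1 (adjusted p up to 0.123), and its log2 fold change was 2.62 without EPO 1 and 5.64 without Vehicle 3.

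The other classes did not pass the test. Igha, of IgA, the antibody of mucosal surfaces, was at 15.5, 14.8 and 30.0 CPM with Vehicle and 344, 25.0 and 48.8 CPM with EPO. EPO 1 held 12319 Igha counts and stood far above the other 5 libraries, while EPO 2 lay within the Vehicle range (log2 fold change 2.79 ± 0.93, edgeR adjusted p = 0.0688). Without EPO 1 the log2 fold change was 0.86, and without EPO 2 the call was made (adjusted p = 0.0343), as it was without the filter on low counts (0.0116). Ighg2c, of the IgG2 class that some mouse strains carry in place of IgG2a, was at 7.52, 22.6 and 25.0 CPM against 17.7, 51.7 and 27.2 CPM (log2 fold change 0.81 ± 0.51, edgeR adjusted p = 0.291). Ighg2b was highest in a Vehicle library, Vehicle 3, at 49.0 CPM, and ran from 1.56 to 19.9 CPM elsewhere (log2 fold change -0.58 ± 1.15, 1.61 without Vehicle 3). Ighg3 was highest in EPO 2 at 7.06 CPM and was 0.261 to 2.12 CPM elsewhere (log2 fold change 1.84 ± 0.96, edgeR adjusted p = 0.206). That value was 0.60 without EPO 2 and 2.95 without Vehicle 2. Igha and Ighg1 thus peaked in EPO 1, Ighg2c and Ighg3 in EPO 2 and Ighg2b in Vehicle 3. Ighg2b and Ighg2c are 87.6% identical in their coding bases, so that some of their reads could be assigned to either.

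The light-chain constant genes were all higher in every EPO library than in every Vehicle library. Igkc, of the kappa chain that most mouse antibodies carry (chr6:70726435-70726966, plus strand), was at 25.9, 29.7 and 62.3 CPM with Vehicle and 316, 72.3 and 159 CPM with EPO. Its log2 fold change was 2.21 ± 0.56 (4.64-fold, edgeR adjusted p = 0.0281), lost without Vehicle 1, Vehicle 2 or EPO 1 (adjusted p up to 0.106), and was 1.55 without EPO 1. Per kilobase of exon, Igkc was the most abundant member, at a mean of 73.9 CPM with Vehicle and 343 CPM with EPO, against 26.2 and 86.1 CPM for Ighm. Of the lambda genes, Iglc2 was at 0.521, 0.544 and 0.552 CPM against 2.09, 1.15 and 0.962 CPM (log2 fold change 1.37 ± 0.39, edgeR adjusted p = 0.0425). That call was lost without each library in turn except EPO 3 (adjusted p up to 0.139), and in limma-voom (adjusted p = 0.0637). Iglc1 ran from 0.304 to 1.35 CPM with Vehicle and from 1.36 to 4.96 CPM with EPO (log2 fold change 1.78 ± 0.64, edgeR adjusted p = 0.0837), and was called by DESeq2 (adjusted p = 0.0221) and in edgeR without the filter on low counts (0.0398). Iglc3 ran from 0.174 to 0.389 CPM and from 0.541 to 0.917 CPM (log2 fold change 1.18 ± 0.43, edgeR adjusted p = 0.0864).

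Iglc2 and Iglc3 are near copies, 96.2% identical over 315 aligned coding bases, which limits how their reads can be told apart. A window of 120 coding bases shows 7 of the 12 differences, in capitals, from GENCODE M21 on GRCm38 (Iglc2 at chr16:19198396-19200351 and Iglc3 at chr16:19065230-19065681, both minus strand).
Iglc2: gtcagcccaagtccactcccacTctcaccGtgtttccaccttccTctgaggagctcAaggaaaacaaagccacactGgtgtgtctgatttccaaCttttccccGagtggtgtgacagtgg
Iglc3: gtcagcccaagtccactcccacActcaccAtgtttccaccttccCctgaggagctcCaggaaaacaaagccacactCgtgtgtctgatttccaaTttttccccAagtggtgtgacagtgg
Iglc1 is further off, at 73.4% identity to Iglc2. The counts of Iglc2 and Iglc3 should therefore be read together, and their shared direction is not 2 separate observations.

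Summed over the 8 heavy-chain genes and the 4 light-chain genes, immunoglobulin constant counts came to 120, 127 and 230 CPM of the library total in Vehicle 1, 2 and 3 and 936, 256 and 541 CPM in EPO 1, 2 and 3. The means were 159 ± 61.8 with Vehicle and 578 ± 341 with EPO (SD, n = 3 each), a ratio of 3.63. The groups did not overlap, and the exact permutation test over libraries (two-sided) gave p = 0.1, the smallest that 3 against 3 allows, or 0.25 after Benjamini-Hochberg adjustment over 5 such values. Without EPO 1 the difference of the means was 240 CPM in place of 419 CPM.

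The make-up of that message varied widely within each group. IgM was 65.7%, 46.7% and 26.3% of heavy-chain constant counts in Vehicle 1, 2 and 3 and 26.8%, 38.3% and 64.9% in EPO 1, 2 and 3 (exact permutation p = 0.8). Vehicle 1 and EPO 3 were thus alike, as were Vehicle 3 and EPO 1. IgA was 50.4% in EPO 1 (95% Clopper-Pearson interval 49.8 to 51.0%) and 13.3 to 19.1% in the other 5 libraries. IgG1 was 0.552%, 1.62% and 5.64% with Vehicle and 16.4%, 11.1% and 7.27% with EPO, and here the groups did not overlap. IgG2b was 31.2% in Vehicle 3 and IgG2c 29.6% in EPO 2, each the highest library for its class. IgD, the mark of naive cells, was 7.46%, 3.48% and 1.52% with Vehicle and 0.520%, 1.40% and 2.40% with EPO. IgE reached 3 counts of 2468 at most, and a count of 0 in Vehicle 1 allows a share of up to 0.17% by the same interval. Lambda was 3.71%, 5.45% and 3.53% of light-chain constant counts against 2.41%, 4.53% and 2.23% (exact permutation p = 0.3). With light-chain variable segments in place of constant genes it was 4.19%, 9.09% and 8.42% against 17.3%, 8.86% and 5.47% (exact permutation p = 0.5). The size of the lambda share thus depended on which genes were counted, most of all in EPO 1. The intervals cover counting error only, since reads copied by PCR are not separate molecules.

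**Figure D3:**
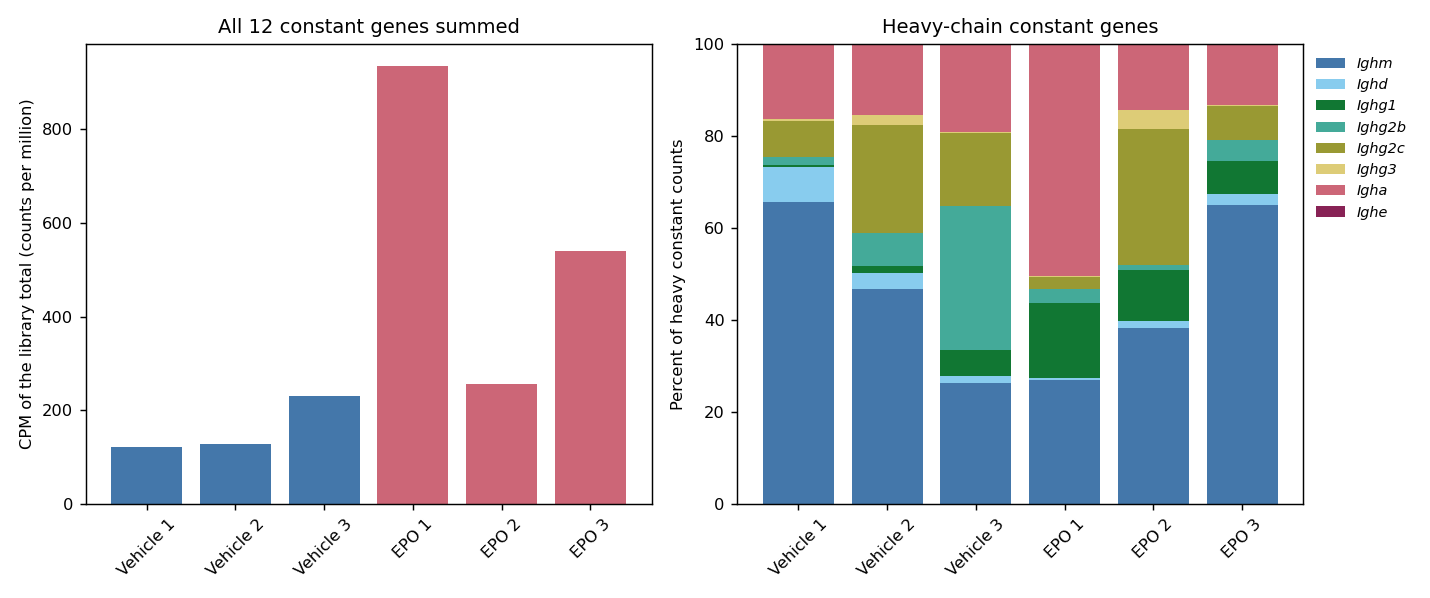
Left, summed level of the 12 immunoglobulin constant genes (CPM of the library total), 1 bar per library. Right, the share of each heavy-chain gene among heavy-chain constant counts in the same libraries (percent, stacked): the EPO bars on the left stand at 936, 256 and 541 and the Vehicle bars at 120, 127 and 230, and Igha takes 50.4% in EPO 1, Ighg2b 31.2% in Vehicle 3 and Ighm 65.7% in Vehicle 1.

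The variable segments of the antibody genes, outside the 32, show how that message was spread. Of 348 annotated segments 195 had a count in at least 1 library. The number with a count was 112, 128 and 135 in Vehicle 1, 2 and 3 and 151, 133 and 149 in EPO 1, 2 and 3 (exact permutation p = 0.2). At equal depth the numbers were 112, 127 and 125 against 141, 124 and 143. Their summed level was 42.1, 44 and 76.9 CPM of the library total against 131, 101 and 230 CPM, without overlap (exact permutation p = 0.1). In edgeR 11 of the 53 tested segments were called higher and 0 lower, beside 12.9% called higher among all tested genes. Of the 53, 14 had an unadjusted p under 0.05, and their median log2 fold change was 1.27. limma-voom called 7 of the 53, beside 3481 of all 16522 genes, 1893 of these higher. DESeq2, run without the filter on low counts, called 24 of the 195 with a count, beside 4907 of 29482 genes. Some called segments had counts enough for the test only through the EPO libraries. Ighv1-80, named after its values were seen, had 0, 4 and 1 counts with Vehicle and 38, 21 and 21 with EPO. The 11 calls and the median thus do not describe the segments left untested. Reads of such similar segments, which are also mutated in B cells, are uncertain in their assignment.

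The leading segment of a library held 11.5%, 9.94% and 7.73% of its variable-segment counts in Vehicle 1, 2 and 3 and 10.9%, 15.3% and 26.9% in EPO 1, 2 and 3, so that EPO 1 lay within the Vehicle values. Igkv1-110 had 2014 of the 7487 variable-segment counts of EPO 3, a share of 26.9% (25.9 to 27.9%), with 12 to 55 counts in the Vehicle libraries and 233 and 31 in EPO 1 and EPO 2. Ighv1-63 had 978 counts in EPO 3 and 0 to 3 in each of the other 5 libraries. Iglv1, called higher (log2 fold change 2.01, edgeR adjusted p = 0.0426), led EPO 1 with 550 counts, beside 22 to 100 with Vehicle. The segments with most counts over the Vehicle group were Igkv10-96, Igkv4-57 and Iglv1, and the first and second of these had 113 and 166 counts in their highest Vehicle library. Igkv13-85, singled out after its values were seen, had 443 counts (15.3%) in EPO 2 and 270 in EPO 1 against 1 to 2 with Vehicle. The 10 leading segments of each library held 45.3%, 45.6% and 41.1% of variable-segment counts with Vehicle and 54.9%, 57.5% and 64.5% with EPO, a measure also chosen after the values were seen and left untested. The effective number of segments (the inverse of the summed squared shares) was 30.4, 31.2 and 39.7 against 24.2, 17.9 and 10.

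**Figure D4:**
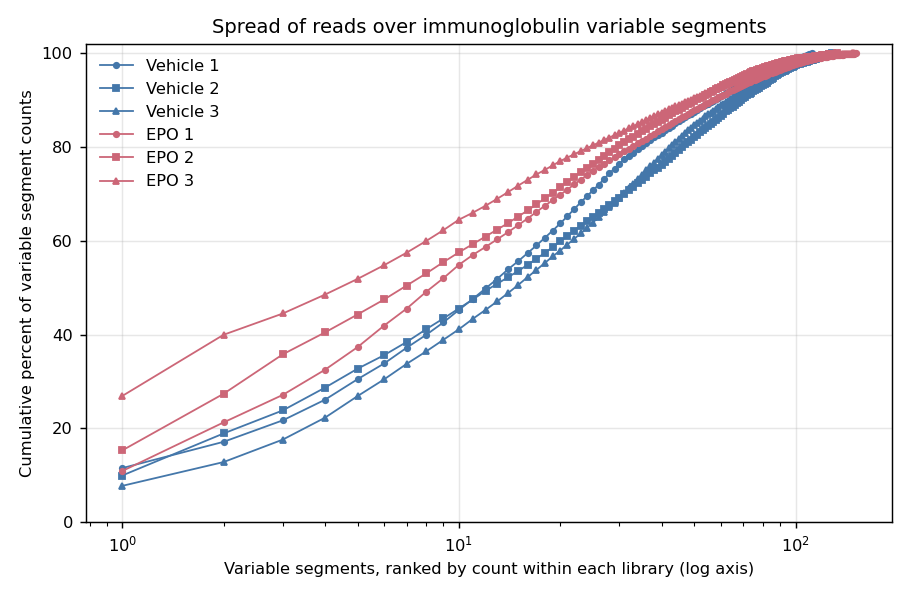
Cumulative percent of variable-segment counts (vertical axis) held by the segments of a library ranked by their count (horizontal log axis), 1 line per library. The 10 leading segments hold 54.9% to 64.5% in the EPO libraries and 41.1% to 45.6% in the Vehicle libraries, and the first segment alone holds 10.9%, 15.3% and 26.9% in EPO 1, 2 and 3 and 7.73% to 11.5% in the Vehicle libraries.

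How close such segments are is seen from Igkv1-110 (chr6:68270485-68271267) and Igkv1-117 (chr6:68121046-68121827), both on the plus strand, which differ at 10 of 359 coding positions. The window from coding base 55 to 174 holds 5 of these differences, in capitals (GENCODE M21 on GRCm38).
Igkv1-110: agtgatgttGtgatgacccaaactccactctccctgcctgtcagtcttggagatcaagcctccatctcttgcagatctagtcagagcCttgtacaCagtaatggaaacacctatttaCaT
Igkv1-117: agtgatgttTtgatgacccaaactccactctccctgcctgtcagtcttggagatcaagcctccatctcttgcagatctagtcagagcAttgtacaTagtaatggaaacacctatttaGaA
Despite that likeness their counts parted in EPO 3, at 2014 for Igkv1-110 and 200 for Igkv1-117, where EPO 1 had 233 and 143. The nearest segment to Ighv1-63 is 92.9% identical.

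Ratios of counts within a library, which no scaling between libraries can move, set immunoglobulin and secretory genes against genes of the naive and mature list. They were chosen after the values were seen and are given as a description. Counts of Jchain per count of Ms4a1 were 3.80, 3.76 and 11.3 in Vehicle 1, 2 and 3 and 38.8, 9.95 and 7.69 in EPO 1, 2 and 3, so that the groups overlapped through Vehicle 3. Counts of Igkc per count of Ms4a1 were 11.1, 12.1 and 51.6 against 195, 49.6 and 33.1, and here EPO 2 and EPO 3 were below Vehicle 3. Counts of Ighm per count of Ighd were 8.81, 13.4 and 17.3 against 51.6, 27.4 and 27.1, without overlap. Naive B cells carry membrane IgM, and counts per gene do not separate it from the secreted form, so Ighm is not a secretory gene alone. Counts of Prdm1 per count of Pax5 were 0.444, 1.02 and 1.71 against 5.57, 6.87 and 1.77, again without overlap, but with EPO 3 next to Vehicle 3. EPO 3 thus combined the highest levels of Ms4a1, Pax5 and Ighd with high Ighm, while EPO 1 combined high immunoglobulin levels with Ms4a1 and Pax5 inside the Vehicle range.

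Genes of 7 related lists outside the 32, which were listed with earlier results known, were called higher in 32 of 72 tested and lower in 0, beside 12.9% called higher among all genes. Without Vehicle 1 there were 17 calls and without Vehicle 2 there were 21, all higher, while without EPO 1 and EPO 2 there were 17 higher and 1 lower. Lower calls also appeared without EPO 1 (2), without EPO 3 (1) and where limma-voom weighted the libraries by quality (2). Receptor signalling genes had the highest share, 11 of 14. Syk, the kinase that reads the activated receptor, was at 45.5, 56.3 and 57.5 CPM with Vehicle and 137, 106 and 104 CPM with EPO (log2 fold change 1.13 ± 0.16, edgeR adjusted p = 0.00415). Lyn, the kinase before it, and Inpp5d, the phosphatase SHIP1 that damps it, had log2 fold changes of 1.27 and 1.68. These genes are shared with macrophages and other myeloid cells, and 12 of the 14 were highest in EPO 1 among the EPO libraries, as the macrophage markers were; their part was not tested.

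Among 10 tested genes of other B cell functions, 4 were called higher. Pou2f2 (OCT2, partner of the protein of Pou2af1) was at 13.8, 15.6 and 17.9 CPM against 25.9, 27.2 and 33.4 CPM, and Bach2, which holds back Prdm1, at 3.13, 2.68 and 2.73 CPM against 5.61, 6.01 and 6.19 CPM. Fcrl1, a B cell surface receptor, had a log2 fold change of 2.08 ± 0.38 (edgeR adjusted p = 0.00943), and Cd72 was the last of the 4. The call of Pou2f2 was lost without Vehicle 1 (adjusted p = 0.0511).

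Of the BAFF and APRIL system, which keeps B cells and plasma cells alive, 1 of 4 tested genes was called. That was the receptor Tnfrsf13b (TACI), at 3.48, 4.16 and 3.97 CPM against 8.78, 6.82 and 9.32 CPM (log2 fold change 1.10 ± 0.20, edgeR adjusted p = 0.00991, and 0.0521 without Vehicle 1). The ligands Tnfsf13 (APRIL) and Tnfsf13b (BAFF) had log2 fold changes of -0.26 and -0.03, and the receptor Tnfrsf13c of mature B cells one of 0.16. The receptor Tnfrsf17 (BCMA) was too low to test, with 7, 8 and 11 counts with Vehicle and 11, 3 and 4 with EPO. Of 10 tested recruitment genes 4 were called higher, namely Cxcr4, Cxcl12, Ccl21a and Ltb. Those not called went both ways. Cxcl13, Cxcr5 and Icosl were lower in value with EPO (log2 fold changes -1.32, -0.45 and -0.43). Ccl19, Ccr7 and Ltbr were higher in value (0.95, 0.90 and 0.56). Cxcr4, which holds plasma cells and many other leukocytes in place, was at 8.17, 22.2 and 23.4 CPM with Vehicle and 89.5, 60.8 and 74.0 CPM with EPO (log2 fold change 2.06 ± 0.37, edgeR adjusted p = 0.00932). Its ligand Cxcl12 was at 267, 415 and 519 CPM against 1080, 711 and 872 CPM (log2 fold change 1.15 ± 0.27, edgeR adjusted p = 0.0237). That call was lost without Vehicle 1, Vehicle 2, EPO 1 or EPO 3 (adjusted p up to 0.0798). Ccl21a, a chemokine of lymphatic vessels and lymph node stroma, was called with a log2 fold change of 1.88 ± 0.43 (edgeR adjusted p = 0.02; its fits without single libraries are given above).

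Of 18 genes of the secretory pathway 4 were called higher, 22.2% beside the 12.9% of all genes. Fkbp11, a folding enzyme of secretory cells, was at 4.30, 5.25 and 7.59 CPM against 17, 16.3 and 17.9 CPM (log2 fold change 1.58 ± 0.23, edgeR adjusted p = 0.00431). Sdc1 (CD138, a plasma cell surface marker that other aortic cells also make) was at 75.6, 89.8 and 98.1 CPM against 381, 240 and 184 CPM. Its log2 fold change was 1.61 ± 0.27 (edgeR adjusted p = 0.00702). Edem1, which sorts misfolded glycoproteins, had a log2 fold change of 0.70 and was lost without Vehicle 1 or Vehicle 3 (adjusted p = 0.0743 and 0.0503), and Creld2, which is also induced by endoplasmic reticulum stress, was the last of the 4. Of the 14 genes not called, Xbp1, the transcription factor that builds the secretory apparatus, had a log2 fold change of 0.22 and Herpud1, which aids the removal of misfolded proteins, one of -0.39, both named after their values were seen. These genes serve any secretory cell, and the fibroblast marker sum, 26300 to 32900 CPM with EPO against 5910 to 7380 CPM with Vehicle, differed between the same groups through Col1a1 above all, with 2 of its 6 genes called. Its part was not tested.

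Of 9 tested class switch and germinal centre genes 5 were called higher. Il4ra, a receptor chain for the cytokines that direct switching to IgG1 and IgE in mice, was at 49.6, 53.0 and 67.3 CPM against 230, 217 and 205 CPM (log2 fold change 1.94 ± 0.15, edgeR adjusted p = 0.00105). S1pr2, a receptor that confines germinal centre B cells, and Il21r, the receptor of a T helper cytokine, had log2 fold changes of 1.15 and 1.87. All 3 are found in other cells of the vessel as well. Of 7 tested Fc receptor genes 3 were called higher, the activating Fcgr1 (log2 fold change 1.44), the inhibitory Fcgr2b (1.09) and the signalling chain Fcer1g (1.38, lost without any 1 of the Vehicle libraries, adjusted p up to 0.122). Those not called were Fcgr3 (0.85), Fcgr4 (0.70), Fcgrt (0.04) and Fcer1a (-1.02). Among the EPO libraries 5 of the 7 were highest in EPO 1, as the macrophage markers were, and the part of such cells was not tested.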

How the data were processed

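Bulk RNA was sequenced in 6 libraries, 3 EPO and 3 Vehicle, as paired-end reads from a kit that names no strand marking, per the labels' protocols. The authors deposited 1 table of raw counts per gene. CASAVA 1.8, TopHat2 2.0.6 and the build mm10 are named in the submitters' processing notes; the sources used here name neither the counting tool nor its strand setting nor its annotation, so reads of overlapping or near-identical genes may be split in ways that cannot be checked. The column names Con and EPO, with a number, were read as the Vehicle and EPO samples of the labels.

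Of 47643 gene IDs 47224 matched GENCODE M21 (GRCm38). Counts were tested with edgeR 4.0.16 (R 4.3.3; TMM, filterByExpr, quasi-likelihood, group as the only term, Benjamini-Hochberg over 16522 genes, two-sided). Standard errors were derived from the log2 fold change and its F statistic. Summed levels and shares were compared by exact permutation over libraries, with 95% Clopper-Pearson intervals for shares. Library totals of 23278649 to 38502430 set the precision: 1 count is well under 0.1 CPM. Alternatives were DESeq2 1.42.0, limma 3.58.1 (voom), other size factors, other filters, equal depth, libraries left out and a replicate term.

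The members, the 7 related lists and the 9 marker lists were chosen with earlier results of these data known. Named genes were all members, up to 3 of lowest p from each related list, up to 2 from each marker list with those at 0 in a library, and up to 3 variable segments of most counts per group; other names were chosen after their values were seen and are marked as such or given as the rest of a called or listed set. The test was tried on simulated counts with known changes. False calls stayed near the nominal rate when spread followed the mean, but exceeded it when spread was drawn gene by gene. The limit first set on false calls failed in that second case and was then kept for the first case only, so calls near the threshold deserve caution. Ighe is reported as counts only.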

Additional observations from a re-analysis of the deposited data

How the results depend on the processing

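Over all genes, 3804 were called, 1548 without EPO 1 and EPO 2, 2248 with a fold of at least 2 required, and 1635 to 4281 with 1 library left out. The 8 calls among the members became 5 with limma-voom, 6 with sample weights, 2 with a replicate block and 1 to 8 with 1 library left out. Over all genes limma-voom made 3481 calls, sample weights 4704 and the block 2884. Among the antibody-secreting and immunoglobulin genes the 8 calls became 5 with limma-voom, 2 with the block, 5 without EPO 1 and EPO 2 and 1 to 7 with 1 library left out. Among the naive and mature B cell genes the 0 calls became 1 without EPO 1 and EPO 2 (Spib), 1 at equal depth (Cd37) and 0 to 1 with 1 library left out. Outside the immunoglobulin genes the count of members called was 4, and was 2 with limma-voom, 2 with sample weights, 1 with the block and 1 to 4 with 1 library left out. The 4 without EPO 2 include Cd79b, while Derl3 was lost there. The related lists gave 18 calls without EPO 1 and EPO 2 and 17 to 34 with 1 library left out. The causes were not tested, though fewer libraries give the test less information by construction.

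Deviations from the group means correlated at -0.0088, -0.0098 and 0.127 between libraries of the same replicate number, 1, 2 and 3. Between unlike numbers they correlated at -0.101 to 0.12. With 3 libraries per group, whose deviations sum to 0, these values cannot decide whether the numbers pair libraries. With the replicate block, Ighm (adjusted p = 0.0471) and Prdm1 (0.012) were the 2 members called, and 1630 genes were called higher and 1254 lower. Cxcl13 was called lower with the block (log2 fold change -1.39, adjusted p = 0.0252), 1 of 26 calls in the related lists.

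Directions turned in genes that were not called. With 1 library left out, the log2 fold change ran from -0.37 (without EPO 3) to 0.69 for Ms4a1, from -0.47 (without EPO 3, and -0.23 without Vehicle 3) to 0.44 for Pax5, from -0.50 (without EPO 3, and -0.08 without Vehicle 3) to 0.76 for Ighd and from -0.72 to 0.28 for Cr2, above 0 without Vehicle 1 (0.03), Vehicle 2 (0.21), EPO 1 (0.28) or EPO 2 (0.14). It ran from -0.03 (without EPO 1) to 0.88 for Cd22, from -1.15 to 1.61 (without Vehicle 3) for Ighg2b, from -0.54 to 0.03 (without Vehicle 1) for Irf4 and from -0.17 (without EPO 3, and -0.08 without Vehicle 3) to 0.52 for Tnfrsf13c. With limma-voom it was 0.08 for Ighg2b, and with sample weights 0.24 for Cr2 and 0.03 for Irf4. Without EPO 1 and EPO 2 it was 0.77 for Cr2, 0.30 for Bank1, -0.52 for Ighg3, 0.10 for Irf4 and 0.10 for Hbb-bt. The EPO minus Vehicle difference in the lambda share was -1.17 percentage points and 3.32 with variable segments in place of constant genes, and that in the IgM share was -2.89, and ran from -13.7 (without EPO 3) to 6.83 (without Vehicle 1), with 5.37 without EPO 1.

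Of the values of 69 named genes under the alternatives, 1024 kept their direction and side of the threshold, 96 fell below it, 14 passed it and 22 turned. Depth limits genes with few counts per library, Ighe, Klk1, Madcam1, Cr2, Cd37 and the lambda genes among them.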
